A study of Mus musculus with 36 samples.

Results

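The genotype effect of Brd1 was examined in imipramine-treated mice, by setting 9 Brd1+/- IMN libraries against 10 WT IMN libraries. These 19 libraries were taken, by their labels alone, from a series of 36 RNA sequencing libraries of the anterior cingulate cortex (aCC). Imipramine (IMN) is a tricyclic antidepressant that blocks the reuptake of noradrenaline and serotonin, and both groups had received it at 10 mg/kg. The mice were females of the C57BL/6NTac-Brd1 strain, 8 to 11 weeks old. WT mice carried no targeted allele, and Brd1+/- mice carried 1 allele of Brd1 with a targeted deletion. By the study's methods WT and mutant mice were matched by litter, and injections were given on consecutive days. All mice had been through a tail suspension test, an open field and a forced swim before the brain was taken, so both groups shared handling and swim stress. RNA came from punches of the right aCC, with 1 library per mouse. The saline-injected mice of the series, 9 Brd1+/- vehicle and 8 WT vehicle, are used below only to set the genotype effect without the drug beside that with it.

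BRD1 (also known as BRPF2) is a scaffold protein with PHD fingers, a bromodomain and a PWWP domain. It holds together complexes in which the acetyltransferase KAT7 (HBO1), or the related KAT6A (MOZ) and KAT6B (MORF), acetylates lysines of histone H3, together with the small subunits ING4 or ING5 and MEAF6. Acetylation of histone H3 marks promoters and enhancers that are open for transcription.

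The targeting construct placed loxP sites around exons 3 to 5 of Brd1. The exons are shown because they are the piece of the gene that the Brd1+/- mice lack on 1 allele. Exon numbers here are those of the transcript Brd1-203 of GENCODE M21, which has 13 exons and 5152 bases. Whether the construct was numbered along the same transcript was not given in the sources used here. Each sequence is the mRNA sense strand, read 5′ to 3′ from the GENCODE M21 transcripts, in lower case throughout. Exon 3 lies at chr15:88716906-88717062, exon 4 at chr15:88713886-88714017 and exon 5 at chr15:88713298-88713426, all on the minus strand of GRCm38.
Brd1 exon 3: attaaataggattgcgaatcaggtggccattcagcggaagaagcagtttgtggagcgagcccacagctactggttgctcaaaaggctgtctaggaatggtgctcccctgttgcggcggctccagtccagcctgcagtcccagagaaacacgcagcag
Brd1 exon 4: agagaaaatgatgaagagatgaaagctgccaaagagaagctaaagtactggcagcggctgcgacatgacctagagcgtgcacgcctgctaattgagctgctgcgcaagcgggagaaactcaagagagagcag
Brd1 exon 5: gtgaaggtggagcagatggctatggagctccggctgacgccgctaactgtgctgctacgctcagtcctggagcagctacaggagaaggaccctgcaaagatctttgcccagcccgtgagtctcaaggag
The 3 exons are coding along their whole length and together hold 418 bases, 8.11% of the transcript. That length leaves a remainder of 1 when divided by 3, the length of a codon. The deposited values are 1 number per gene, so RNA made from the deleted allele cannot be told apart from RNA of the intact one.

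Brd1 itself (ENSMUSG00000022387) lies on chromosome 15 from 88687034 to 88734233. Its level, in TPM (transcripts scaled to a fixed total per library), was lowest at 17.9, had a median of 24.0 and was highest at 27.8 in the WT IMN libraries. In the Brd1+/- IMN libraries it was lowest at 13.5, with a median of 17.3 and a highest value of 19.4. All 9 Brd1+/- libraries lay below the WT median, and 5 of them below every WT library, but the groups overlapped in the range from 17.9 to 19.4. The level in Brd1+/- mice was 73.0% of WT, a log2 fold change (Brd1+/- minus WT, on log2(TPM + 0.5)) of -0.45 with a standard error (SE) of 0.091 and a 95% interval from -0.64 to -0.26. An exact permutation test over all 92378 arrangements of the 19 libraries, two-sided, gave p = 0.000281. In vehicle mice the log2 fold change was -0.64. The 2 effects were not separated by the limma test of the difference (0.18, SE 0.13, unadjusted p = 0.169, adjusted p = 1.00). The 95% interval of the difference, from -0.08 to 0.45, does not show equal effects.

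The list of BRD1 acetyltransferase complexes was measured in full (12 of 12 members, Brd1 included, passed the filter on low values). Along with partners of BRD1 it holds the other scaffolds Brpf1, Brpf3, Jade1, Jade2 and Jade3. Besides Brd1, 0 of the 11 other members reached an unadjusted limma p under 0.01 or an adjusted p under 0.05. Across all 25572 genes tested, 0.614% reached that unadjusted level. Of the 11 log2 fold changes 9 were above 0, beside 52.0% of all genes tested. The lean was not shared by the vehicle mice: the median of the 12 members, Brd1 included, was -0.09 there and 0.05 under IMN. Kat7, the catalytic subunit of the HBO1 complex, lay between 29.9 and 43.8 TPM in WT and between 34.8 and 44.6 TPM in Brd1+/- mice, a log2 fold change of 0.05 (95% interval -0.11 to 0.21). For Kat6a the log2 fold change was 0.05 (-0.13 to 0.23), and for Kat6b it was 0.07 (-0.06 to 0.21). These intervals leave room for differences of up to about the size of their bounds and do not show equal levels.

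Brpf1 and Brpf3 are the paralogous scaffolds that can take the place of BRD1 in such complexes. Brpf1 ran from 15.9 to 21.1 TPM, with a median of 18.1, in WT mice and from 16.1 to 22.8 TPM, with a median of 19.4, in Brd1+/- mice. Its log2 fold change was 0.08 (95% interval -0.06 to 0.22). Brpf3 had a median of 8.94 TPM in WT and 12.4 TPM in Brd1+/- mice, and 8 of 9 Brd1+/- libraries lay above the WT median. Its mutant libraries were widely spread, from 6.27 to 24.1 TPM, and its log2 fold change of 0.30 (SE 0.19, 95% interval -0.09 to 0.69) did not exceed that spread. The JADE scaffolds, which direct KAT7 to histone H4, had log2 fold changes of -0.05 (Jade1), -0.04 (Jade2) and 0.13 (Jade3). The readers of methylated histone H3 had 0.13 (Ing4) and 0.02 (Ing5), and Meaf6 had 0.01, with signs for Ing5 and Meaf6 that turned when single libraries were left out.

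**Figure D1:**
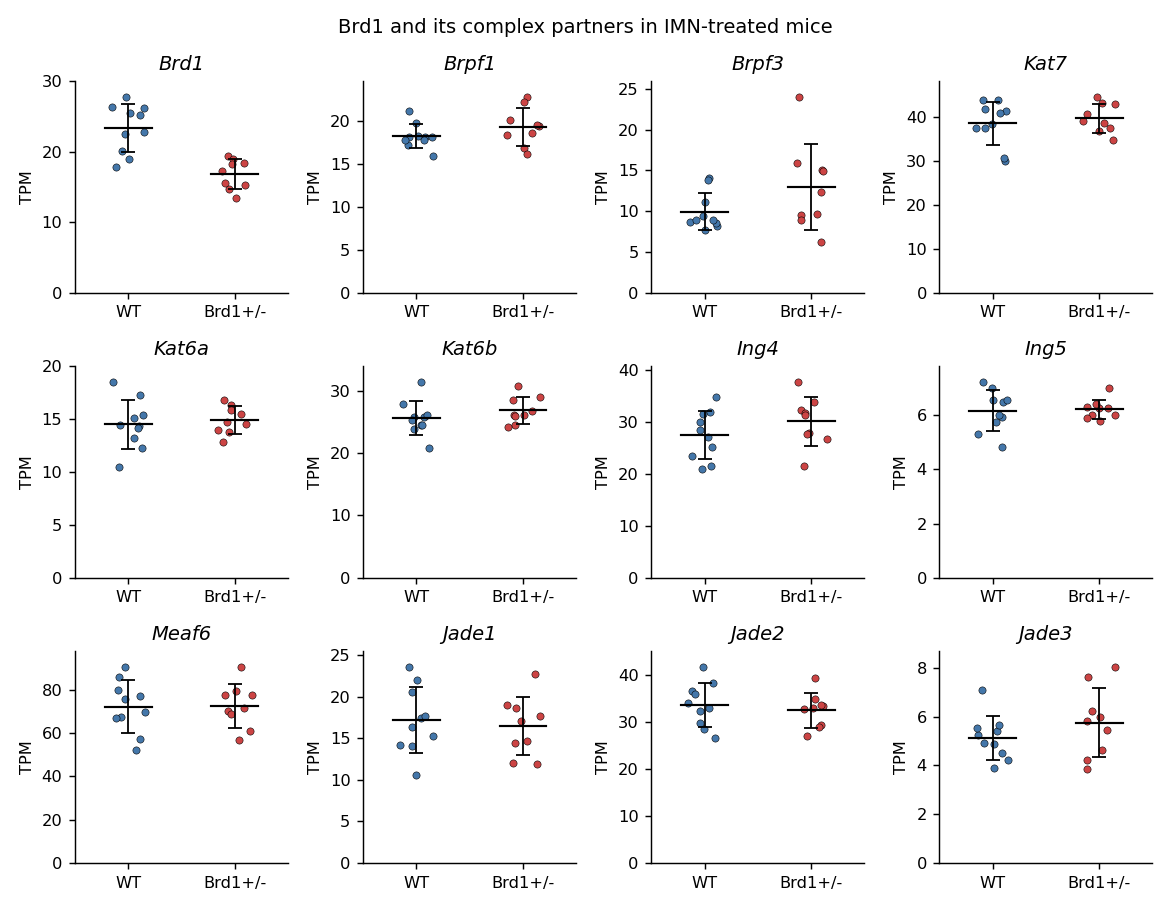
TPM (y axes, starting at 0) of Brd1 and the 11 other members of its complex list in the 10 WT IMN and 9 Brd1+/- IMN libraries. Points are single mice, and lines and bars are the mean and SD. Brd1 sits lower in Brd1+/- mice (13.5 to 19.4 TPM against 17.9 to 27.8 TPM), while the groups of each other member overlap widely.

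Across all genes, none passed the adjusted test. Of 25572 genes tested with limma, 0 had a Benjamini-Hochberg adjusted p under 0.05 (0.0% of genes), and 826 (3.23%) had an unadjusted p under 0.05. The lowest adjusted p was 0.882, and it was shared by Brd1, which ranked first. At an unadjusted p under 0.01, the nominal level of the study, 157 genes (0.614%) were listed, 97 higher (0.379%) and 60 lower (0.235%) in Brd1+/- mice. That share lies below the 0.01 of all genes that the level itself stands for, and genes of the list are given below as values and not as calls. The split between directions moved with the scaling: after quantile normalization 74 genes were higher and 82 lower. No gene had groups that did not overlap (0 higher and 0 lower, 0.0% each), Brd1 included.

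The 95% intervals were narrow for most genes. For 85.3% of the 17676 genes whose mean reached 1 TPM, and for 94.7% of the 10077 whose mean reached 10 TPM, the 95% interval of the fold change lay wholly within 1.5-fold in either direction. The median absolute log2 fold change over the genes that reached 10 TPM was 0.05, with a median SE of 0.09. Of the 15540 protein-coding genes, 74 (0.476%) reached the nominal level, and of the 10032 other genes, which are mostly pseudogenes, long noncoding RNAs and small RNA genes, 83 did (0.827%).

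**Figure D2:**
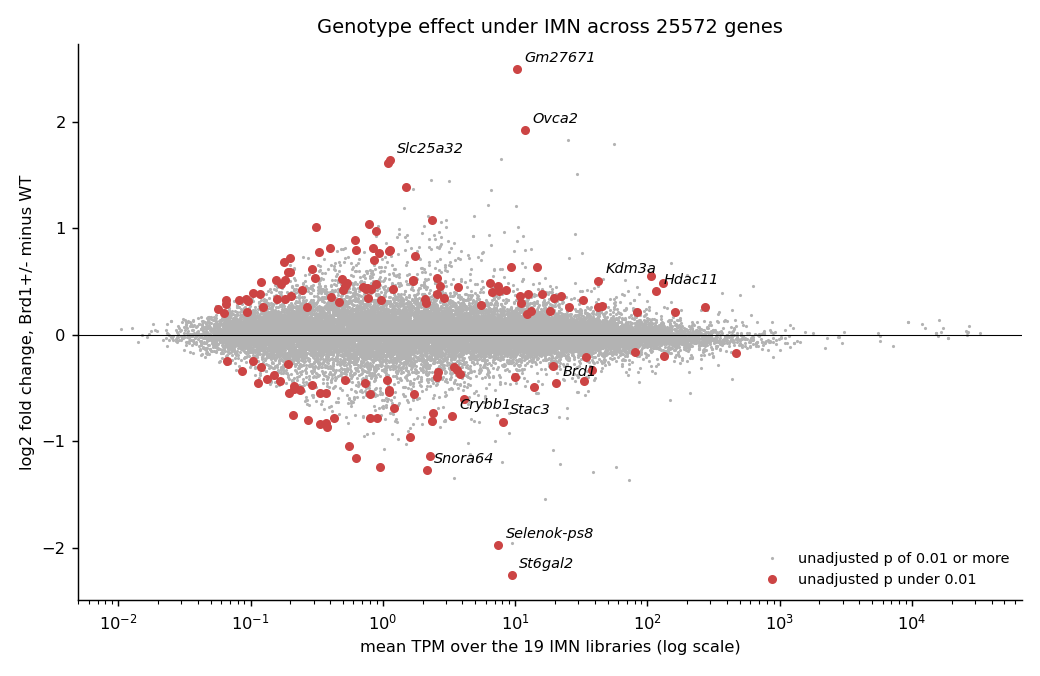
Log2 fold change of Brd1+/- against WT under IMN (y axis) by mean TPM over the 19 libraries (x axis, log scale) for 25572 genes, with the 157 genes at an unadjusted p under 0.01 in red. The red points lie on both sides of 0 (97 above and 60 below) and at low as well as high levels.

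The genes whose mean reached 1 TPM held 77 at the nominal level (0.436%) and 436 at an unadjusted p under 0.05 (2.47%). Among them the 10 with the smallest p-values that were higher in Brd1+/- mice were Ercc2, Usp42, Kdm3a, Eno3, Gm27671, Mir6907, Gm973, Ep400, Agbl5 and Hdac11. Their limma adjusted p-values lay between 0.882 and 1.00. Ercc2, which encodes the XPD helicase of the transcription and repair factor TFIIH, ran from 15.3 to 25.0 TPM with a median of 19.3 in WT, and from 22.5 to 30.6 TPM with a median of 24.9 in Brd1+/- mice. The 9 Brd1+/- libraries all lay above the WT median, and 8 of 10 WT libraries below every Brd1+/- library. Its log2 fold change was 0.36 (SE 0.085).

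Kdm3a, a demethylase of histone H3 lysine 9, ran from 27.7 to 45.4 TPM (median 34.5) in WT and from 35.1 to 75.1 TPM (median 48.6) in Brd1+/- mice. Its log2 fold change was 0.51 (SE 0.12), a level 1.42 times that of WT, and 5 of 9 Brd1+/- libraries exceeded every WT library. Usp42, a deubiquitinase, had medians of 10.8 and 14.8 TPM and a log2 fold change of 0.38 (SE 0.089). Ep400, the ATPase of the TIP60/p400 remodelling complex, had medians of 27.9 and 36.5 TPM and a log2 fold change of 0.33 (SE 0.094). For Kdm3a, Usp42 and Ep400 all 9 Brd1+/- libraries lay above the WT median, and the groups overlapped.

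Hdac11 encodes the class IV histone deacetylase, an enzyme that also removes fatty acyl groups from lysines and is abundant in brain. It was the one gene besides Brd1, of 619 genes tested in the 35 lists, that reached the nominal level. In WT IMN mice Hdac11 ran from 64.0 to 139.1 TPM, with a median of 94.8, and in Brd1+/- IMN mice from 123.3 to 142.3 TPM, with a median of 132.7. The mutant libraries were tightly grouped near the top of the WT range: 7 of 10 WT libraries lay below every Brd1+/- library, and only 1 of 9 Brd1+/- libraries exceeded the highest WT library. The log2 fold change was 0.41 (SE 0.12, adjusted p = 1.00 by limma). It was 0.29 (SE 0.10) in vehicle mice, and the difference between the 2 effects was 0.11 (SE 0.16, limma adjusted p = 1.00). Histone deacetylases and sirtuins were divided: of 18 in the list, Hdac11 included, 9 were above and 9 below 0, with a median log2 fold change of 0.01. Sirt5, a mitochondrial desuccinylase, had the second smallest p of that list (unadjusted limma p of 0.0103), at -0.29 on the log2 scale with an SE of 0.10.

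Of the remaining genes on the higher side, Eno3, the muscle form of the glycolytic enzyme enolase, had medians of 7.05 TPM in WT and 9.66 TPM in Brd1+/- mice and a log2 fold change of 0.42 (SE 0.10). Agbl5, which trims glutamate side chains from tubulin, had medians of 9.27 and 12.8 TPM and a log2 fold change of 0.36 (SE 0.11). Gm973 is a protein-coding gene of unassigned function, with medians of 1.98 and 3.30 TPM and a log2 fold change of 0.53 (SE 0.15). For Eno3 and Agbl5 all 9 mutant libraries were above the WT median, and for Gm973 8 of 9 were. Mir6907, a miRNA gene, ran from 0.0 to 1.56 TPM in WT and from 0.0 to 3.99 TPM in Brd1+/- mice. How reads of such short genes were assigned is not given in the sources used here.

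On the lower side the 10 genes were Brd1, Pip5k1a, Dmp1, Gm27018, Crybb1, Gm6916, Stac3, Nek8, Snora64 and Glt1d1. Dmp1, a dentin matrix phosphoprotein, came closer to separating the genotypes than the others in this list. It ran from 3.53 to 4.53 TPM (median 4.15) in WT and from 2.54 to 3.68 TPM (median 3.22) in Brd1+/- mice, and 8 of 9 Brd1+/- libraries lay below every WT library. The log2 fold change was -0.33 (SE 0.078), with an adjusted p of 0.882 by limma.

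Pip5k1a, a kinase that makes the membrane lipid phosphatidylinositol 4,5-bisphosphate, ran from 32.4 to 40.5 TPM (median 38.0) in WT and from 21.98 to 38.7 TPM (median 24.3) in Brd1+/- mice. Most mutant libraries were low, 6 of 9 below every WT library, while 1 of 9 lay above the WT median. Its log2 fold change was -0.44 (SE 0.098) under IMN and -0.05 (SE 0.19) with vehicle. Low values of Pip5k1a occurred in both genotypes with vehicle, from 23.8 to 44.4 TPM in WT and from 17.8 to 48.5 TPM in Brd1+/- mice.

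Crybb1, a beta-crystallin, ran from 2.60 to 6.52 TPM (median 3.87) in WT and from 0.939 to 4.13 TPM (median 2.33) in Brd1+/- mice, with 7 of 9 mutant libraries below every WT library. Its log2 fold change was -0.76 (SE 0.19) under IMN and -0.57 (SE 0.18) with vehicle. Stac3, an adaptor of voltage-gated calcium channels known from skeletal muscle, had medians of 9.47 and 5.35 TPM and a log2 fold change of -0.82 (SE 0.22). Nek8, a kinase of the primary cilium, had medians of 3.23 and 1.64 TPM and a log2 fold change of -0.74 (SE 0.21). Glt1d1, a putative glycosyltransferase, had medians of 19.6 and 17.0 TPM and a log2 fold change of -0.29 (SE 0.086). In each of these genes at least 8 of 9 mutant libraries lay below the WT median, and the groups overlapped.

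The rest of the lower side were 2 processed pseudogenes, Gm27018 with a log2 fold change of -0.54 and Gm6916 with -0.55, and a small nucleolar RNA, Snora64 with -1.27. Reads of such genes may be shared with other copies. The 2 genes that followed Brd1 in the order of p over all genes, Gm14247 and Gm22505, were near the limit of the table. Gm14247, a processed pseudogene, had a value over 0 for 10 of 10 WT and for 5 of 9 Brd1+/- libraries and did not exceed 1.15 TPM. Gm22505, a small nuclear RNA gene, had one for 9 of 10 WT and for 2 of 9 Brd1+/- libraries and did not exceed 1.10 TPM.

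The vehicle mice share no library with the IMN mice, so each gene's effects can be set side by side. At the same nominal level 179 genes (0.7%) were listed with vehicle, 64 higher (0.25%) and 115 lower (0.45%), with 959 (3.75%) at an unadjusted p under 0.05. That split too moved with the scaling, with 91 genes above 0 and 94 below under median-ratio scaling, and 96 above and 85 below when quantiles were equalized. Of the nominal genes, 7 were in both lists, which is 4.46% of the IMN list and 3.91% of the vehicle list. Of these 7, named after their values were seen, 6 had the same sign. The nominal level with vehicle was lost in 5 of 13 alternative fits for Hdac11, in 6 for 4930447C04Rik and in 3 for Crybb1. Brd1, Crybb1 and 4930447C04Rik were lower in both, and Hdac11, Pcdhb5 and Gm48858 were higher in both. The pseudogene Rps10-ps4 had a log2 fold change of 0.52 under IMN and -0.30 with vehicle. Both Gm48858 and Rps10-ps4 were near 0, not exceeding 0.916 and 0.812 TPM in any library of the series. 4930447C04Rik had log2 fold changes of -0.33 (SE 0.10) and -0.51 (SE 0.17). Pcdhb5, a clustered protocadherin, had 0.34 (SE 0.11) and 0.36 (SE 0.12). Of the 157 genes listed under IMN, 83 (52.9%) had the same sign with vehicle, beside 50.8% of all genes tested.

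The test of the difference itself, a genotype by IMN interaction over all 36 libraries, gave 0 of 25572 genes at an adjusted p under 0.05 by limma, 818 (3.2%) at an unadjusted p under 0.05 and 140 (0.547%) at the nominal level, 98 above 0 (0.383%) and 42 below (0.164%). With median-ratio scaling 88 were above and 58 below 0, and after quantile normalization 72 and 76. The named genes with the smallest unadjusted interaction p were Rps10-ps4, Kdm3a and Usp42, and the limma adjusted p was 1.00 for each. Of these, Rps10-ps4 did not exceed 0.812 TPM in any library. In Kdm3a the genotype effect was 0.51 under IMN and -0.32 (SE 0.17) with vehicle, a difference of 0.83 (SE 0.22). In Usp42 it was 0.38 and -0.11 (SE 0.094), a difference of 0.48 (SE 0.13). Because these genes were picked for their effect under IMN, which is part of the difference, these values are a description.

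**Figure D3:**
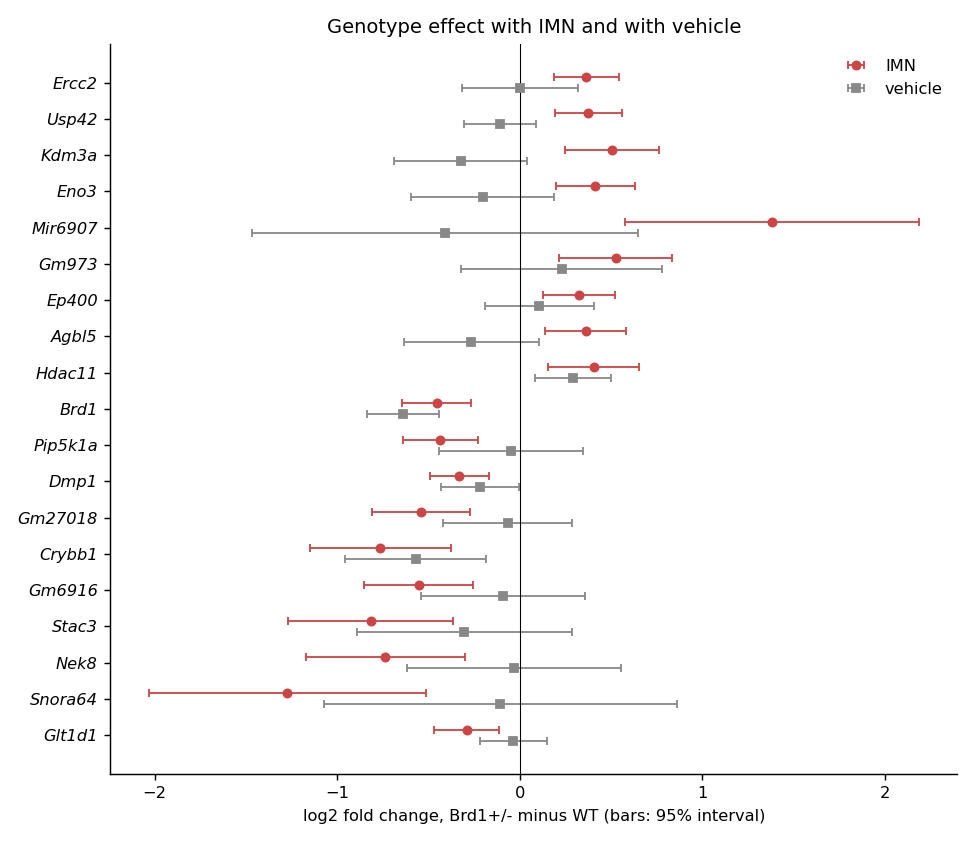
Log2 fold change of Brd1+/- against WT (x axis) with its 95% interval, under IMN (red circles) and with vehicle (grey squares), for the genes with the smallest p-values on each side, Gm27671 left out for its range. Brd1, Hdac11, Dmp1 and Crybb1 have intervals wholly on the same side of 0 with both treatments. Every other gene shown has a vehicle interval that includes 0, whether or not its sign is the same. Kdm3a lies at 0.51 with IMN and -0.32 with vehicle.

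Of the 6 genes named for the size of their fold change, all but Snora64 were genes whose values fell into separate sets of libraries with nothing between them. A gene was counted in this class where the 19 values split into 2 sets of at least 2 libraries each with a gap of at least 2-fold. The class held 586 of 25572 genes (2.29%) and 12 of the 157 genes at the nominal level (7.64%). St6gal2, a sialyltransferase, was between 9.07 and 18.3 TPM in 10 of 10 WT IMN libraries, between 4.79 and 14.1 TPM in 5 of 9 Brd1+/- IMN libraries, and listed at 0 in the other 4. With vehicle it was listed at 0 in 2 of 8 WT and 2 of 9 Brd1+/- libraries.

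Slc25a32, the mitochondrial folate carrier, was at 2.75 TPM in 1 of 10 WT libraries and from 2.84 to 3.49 TPM in 6 of 9 Brd1+/- libraries, and listed at 0 in all the rest. With vehicle its high set held 4 of 8 WT and 3 of 9 Brd1+/- libraries. Gm27671, a miRNA gene within Marf1 on chromosome 16, was between 25.6 and 44.6 TPM in 5 of 9 Brd1+/- libraries and under 1.36 TPM in the other 14 libraries of the comparison. With vehicle its high set held 3 of 8 WT and 2 of 9 Brd1+/- libraries. Each of these genes thus showed the same pair of levels in both genotypes when all 36 libraries were read.

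Ovca2, a serine hydrolase gene on chromosome 11, overlaps the end of Dph1 on the same strand. Ovca2 was under 1 TPM in 4 of 10 WT and 0 of 9 Brd1+/- libraries, and from 8.19 to 20.7 TPM in the rest. In the 4 libraries low in Ovca2, Dph1 ran from 11.7 to 17.1 TPM, and in the other 15 from 7.63 to 12.1 TPM. Selenok-ps8, a pseudogene, was over 12 TPM in 8 of 10 WT and 2 of 9 Brd1+/- libraries and under 2 TPM in the others. With vehicle its high set held 3 of 8 WT and 6 of 9 Brd1+/- libraries, and that of Ovca2 held 5 of 8 and 8 of 9. Rac1, a GTPase of dendritic spines, had 4 of 10 WT libraries between 31.5 and 48.8 TPM and all other IMN libraries above 103 TPM, with a log2 fold change of 0.61 (SE 0.25). With vehicle the low set of Rac1 held 2 of 8 WT and 5 of 9 Brd1+/- libraries, and the log2 fold change was -0.50 (SE 0.39). How reads or transcript models were assigned between overlapping or similar genes in single libraries was not tested.

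**Figure D4:**
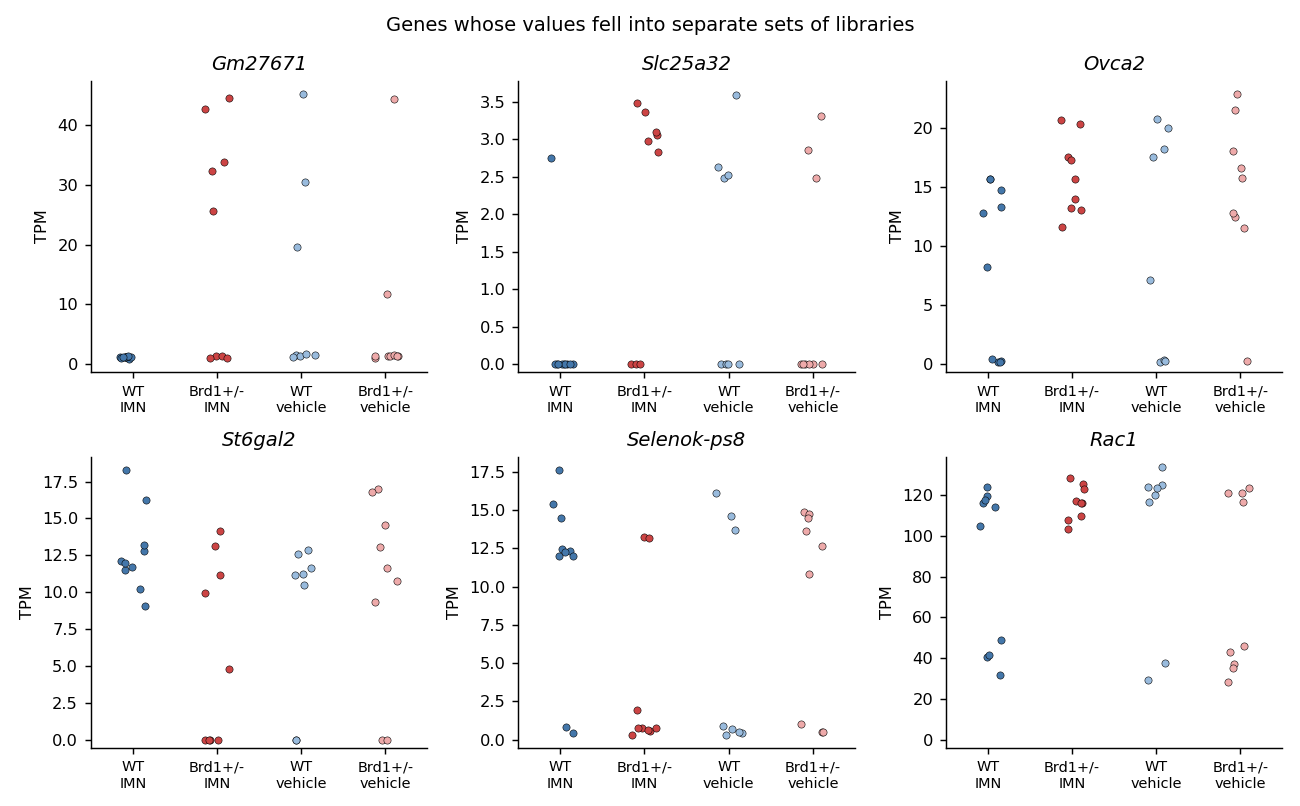
TPM (y axes) of 6 genes in single libraries of the 4 groups, IMN in dark and vehicle in light colours. In each gene the points form a high and a low set with a gap between them, and both sets occur in both genotypes when vehicle libraries are included.

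The other genes that the study marks in this tissue were measured too. Slc25a35, a mitochondrial carrier, ran from 3.68 to 6.14 TPM (median 4.51) in WT and from 4.49 to 7.38 TPM (median 5.67) in Brd1+/- mice. Its log2 fold change was 0.29 (SE 0.11) with an unadjusted limma p of 0.0126, just outside the nominal level, and it was -0.02 with vehicle. The study, which tested counts with edgeR, describes Slc25a35 as normalized after IMN. In the TPM values the genotypes lay further apart under IMN than with vehicle. Under IMN Slc25a35 reached the nominal level in 3 of 13 alternative fits and in 4 of 19 fits that left out 1 library. Kcnd2, the Kv4.2 potassium channel, had medians of 34.7 and 34.98 TPM and a log2 fold change of 0.03 (95% interval -0.14 to 0.20), whose sign turned in 1 alternative fit. With vehicle Kcnd2 was at 0.20 (SE 0.065), at the nominal level but with a limma adjusted p of 1.00. Drd2, the D2 dopamine receptor, did not exceed 1.12 TPM, under IMN, with a log2 fold change of 0.09 (-0.34 to 0.51). With vehicle that of Drd2 was 0.76 (SE 0.56), and 1 Brd1+/- library had 34.7 TPM where no WT library exceeded 1.48 TPM. The summed TPM of striatal marker genes reached 1497.6 in the Brd1+/- vehicle group and 301.9 in the WT vehicle group. Its part in the Drd2 value was not tested. The study reports Drd2 as overexpressed in vehicle-treated Brd1+/- mice and reduced by IMN. Slc6a3, the dopamine transporter, had a value over 0 for 2 of 10 WT and for 0 of 9 Brd1+/- libraries and was not tested.

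Pathway and cell type lists were described by their members. The 35 lists held 635 genes, of which 619 were tested, and 2 of them (0.323%, Brd1 and Hdac11) reached the nominal level, beside 0.614% of all genes. At an unadjusted p under 0.05 there were 16 (2.58%), beside 3.23% of all genes. For 515 of the 619 (83.2%) the 95% interval lay within 1.5-fold. For the counts by sign below, 52.0% of all genes tested were above 0, and 50.2% of those with a mean of at least 1 TPM. The medians of the lists ran from -0.17 to 0.23 on the log2 scale, and 29 of 35 lay within 0.1 of 0, where the median over all genes was 0.01. The members named below with p under 0.05 were picked after their values were seen.

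Receptors for the serotonin and noradrenaline that IMN raises did not pass the test. Of 13 serotonin receptor genes tested, 0 reached p under 0.05, the median log2 fold change was -0.01, and 8 intervals lay within 1.5-fold. Mean Htr1a was 5.55 TPM (SD 1.18) over the 10 WT and 5.91 TPM (SD 1.07) over the 9 Brd1+/- libraries. Mean Htr2a, the receptor of cortical pyramidal cells, was 14.2 TPM (SD 4.27) and 12.8 TPM (SD 4.74) in the same order. Of 9 adrenergic receptor genes 0 reached p under 0.05, with 7 above 0, a median of 0.06 and 6 intervals within 1.5-fold. Of 11 genes for monoamine synthesis, transport and breakdown, 1 did: Slc18a2, the vesicular monoamine transporter, with a log2 fold change of -0.20 (SE 0.09).

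Among 23 immediate-early genes, which neurons switch on within minutes of firing, 11 were above and 12 below 0, 0 reached p under 0.05, and 16 intervals lay within 1.5-fold. Mean Fos was 45.2 TPM (SD 6.39) over the WT and 45.0 TPM (SD 8.19) over the Brd1+/- libraries. Mean Arc was 189.2 TPM (SD 44.9) and 161.8 TPM (SD 57.5), or -0.26 (SE 0.17) on the log2 scale. Of 33 genes of cAMP and CREB signalling, 23 were below 0 with a median of -0.02, and 2 reached p under 0.05, both above 0. These were the CREB coactivator Crtc3 (0.25, SE 0.10) and the cAMP phosphodiesterase Pde4d (0.41, SE 0.18).

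Several lists leaned to one side, among them 3 pathway lists with small medians. Of 23 genes of sterol synthesis, the pathway that makes cholesterol, 19 were below 0, with a median of -0.05 and 3 at p under 0.05: Mvd (-0.18, SE 0.072), Tm7sf2 (-0.18, SE 0.084) and Hsd17b7 (-0.25, SE 0.11). All 23 intervals lay within 1.5-fold. Of 23 genes of the unfolded protein response, 18 were below 0 with a median of -0.07, and Sdf2l1, an endoplasmic reticulum chaperone cofactor, had the lowest value at -0.45 (SE 0.19). Of 19 circadian clock genes, 17 were above 0 with a median of 0.07, and 2 had p under 0.05. These were Hlf (0.38, SE 0.14), a PAR bZIP output factor that was at 0.31 with vehicle, and the repressor Bhlhe41 (0.34, SE 0.14). With vehicle the medians were 0.03 for sterol synthesis, -0.03 for the unfolded protein response and 0.05 for the clock genes. Under IMN the lean of each of the 3 lists kept its side under median-ratio scaling, quantile normalization and the total without mitochondrial genes. Members of a pathway vary together between mice, so these counts are not independent votes, and no test was made of them.

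Signs in the mitochondrially encoded list (10 of 13 above 0), the nuclear complex I list (27 of 37 below 0) and the ribosomal protein list (53 of 79 below 0) depended on scaling, with 6, 16 and 40 after quantile normalization. Synaptic vesicle genes had a median of -0.04 (18 of 27 below 0), glutamate receptor genes 0.03 (15 of 25 above 0) and GABA-A receptor genes 0.03 (11 of 14 above 0, the same count under each scaling), with 0 genes at p under 0.05 in these 3 lists. Dendrite and spine genes had a median of -0.02, and Rac1 was the one of 32 at p under 0.05. Bromodomain readers had 1 of 23 (Atad2b, 0.23, SE 0.099) and other histone acetylation writers 0 of 12.

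**Figure D5:**
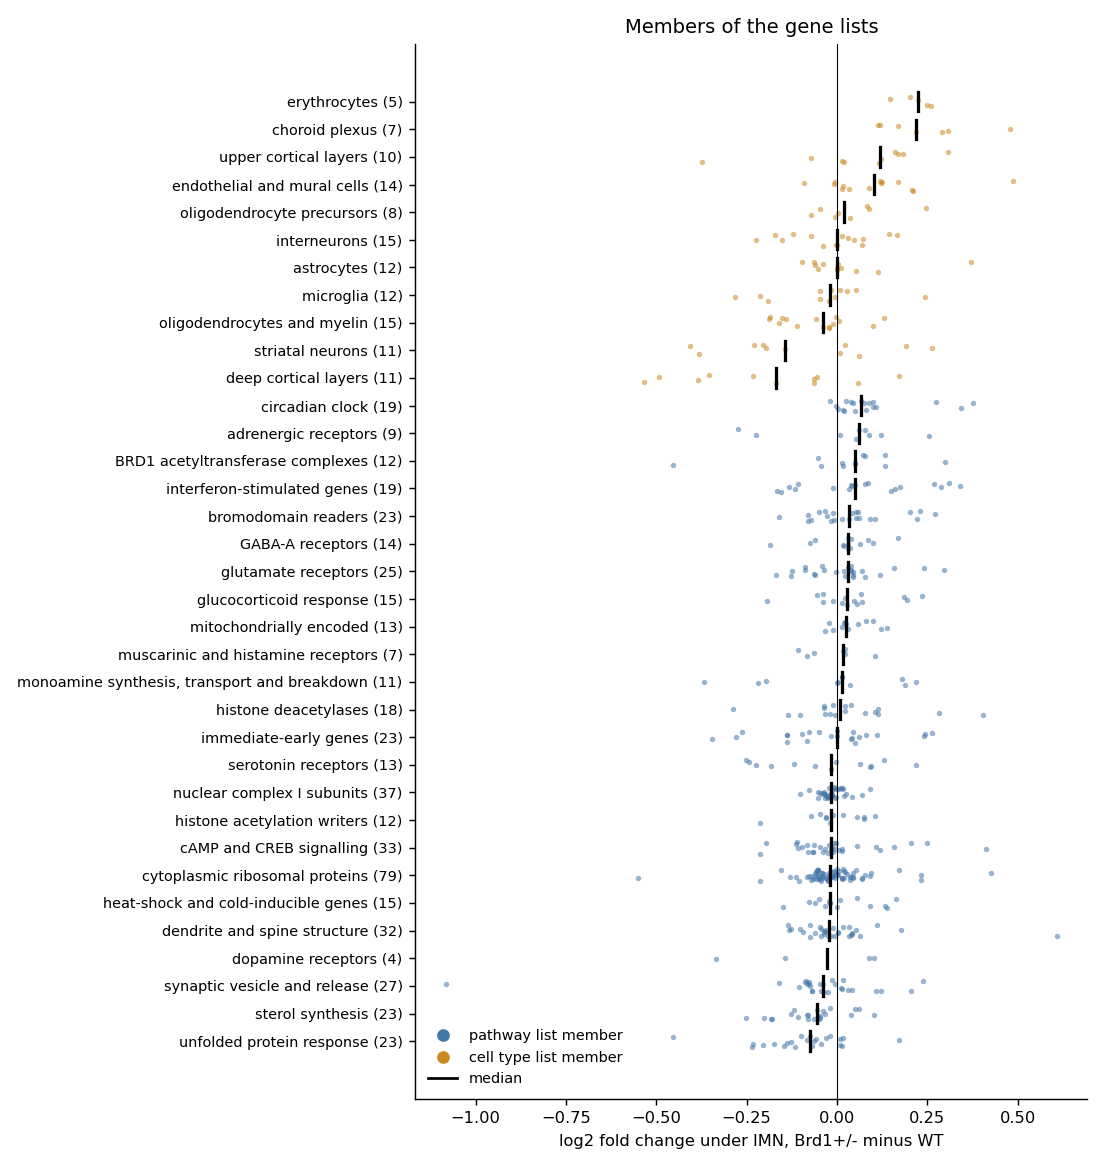
Log2 fold change of Brd1+/- against WT under IMN (x axis) for every tested member of the 35 lists (numbers tested in brackets), with the median of each list as a black bar. List medians run from -0.17 to 0.23, and the members of the synaptic vesicle list have the widest range, from -1.08 to 0.24.

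In bulk tissue, fewer cells of a type and less RNA per cell cannot be told apart. The summed TPM of 15 myelin genes ran from 262.9 to 3823 in WT and from 265.9 to 3687 in Brd1+/- mice. Of these genes 12 of 15 were below 0 (11 or 12 under each scaling), with a median of -0.04 under IMN and 0.29 with vehicle. The markers of deep cortical layers summed to between 149.1 and 794.8 TPM in WT and between 221.7 and 516.7 TPM in Brd1+/- mice. Deep-layer genes had a median log2 fold change of -0.17 (9 of 11 below 0), striatal genes -0.14 (6 of 11), and upper-layer genes 0.12 (8 of 10 above 0), with 0 genes at p under 0.05 in these 3 lists. Endothelial and mural genes had a median of 0.10 (11 of 14 above 0), with 0 genes at p under 0.05. With vehicle the medians were 0.34 (deep layers), 0.47 (striatal), 0.03 (upper layers) and 0.03 (endothelial and mural). Under IMN all 7 tested choroid plexus genes and all 5 erythrocyte genes were above 0, with medians of 0.22 and 0.23. Kcne2 was the one gene of these at p under 0.05 (0.29, SE 0.14). The choroid plexus sum did not exceed 7.72 TPM in WT and reached 42.0 TPM in Brd1+/- mice, and 5 of its 10 members had a median under 0.1 TPM. With vehicle the median was 0.54 for choroid plexus, where the Brd1+/- sum reached 3952.5 TPM, and -0.065 for erythrocytes. Interneuron markers summed to at least 1106 TPM and upper-layer markers to at least 216.8 TPM in each of the 19 IMN libraries. The part of these markers in the genotype effects was not tested beyond the fit with myelin and striatal scores as covariates, in which Brd1 was at -0.43 and 182 genes reached the nominal level.

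The neighbourhood of Brd1 was examined because the targeted allele and any linked sequence lie there. Of 47 other genes that start within 1 Mb of either end of Brd1, 38 were tested, all of them upstream of Brd1. None of them reached the nominal level (0 of 38, beside 0.614% of all genes), and 1 had an unadjusted p under 0.05, the miRNA gene Mir6958 (0.32, SE 0.13). Their log2 fold changes ran from -0.26 to 0.32 with a median of 0.03, and 23 were above and 15 below 0. The nearest to the nominal level among protein-coding genes was Creld2, an endoplasmic reticulum stress gene, with means of 15.7 TPM (SD 2.82) for WT and 13.4 TPM (SD 2.75) for Brd1+/- mice and a difference of -0.23 (SE 0.12) on the log2 scale.

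One library stood apart. Brd1+/- IMN replicate 6 had the lowest median correlation with the other IMN libraries (Pearson's r = 0.948 over genes, where the highest was 0.968), and without it 171 genes were at the nominal level and 0 at an adjusted p under 0.05 by limma. Mitochondrially encoded genes took from 21.9% to 30.5% of the TPM in WT and from 24.6% to 28.0% in Brd1+/- mice, with means of 25.6% ± 2.27 (SD, n = 10) and 26.0% ± 1.03 (SD, n = 9). No 2 of the 171 pairs of libraries held identical values (0 pairs).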

How the data were processed

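The authors sequenced aCC RNA on the BGISEQ-500. Per the submitters' processing notes, reads were checked with FastQC, trimmed with Trimmomatic, aligned to GRCm38 with HISAT2 2.1.0 and quantified with StringTie 1.3.4. The deposited values are TPM made by the authors, 1 per gene and library, for 52636 genes and 36 libraries, and 0 columns of values were left without a sample. TPM keep no depth, so the depth of each library is unknown and no counting interval is given. Strand use and the handling of shared reads are not given in the sources used here. TPM were relative to each library's total and were not scaled further.

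Here deposited TPM were transformed to log2(TPM + 0.5), a scale on which folds of weakly expressed genes come out too small. A gene was kept if 8 or more of the 36 libraries held 0.1 TPM or more. limma 3.58.1 in R 4.3.3 gave two-sided moderated tests with an intensity trend and Benjamini-Hochberg adjustment over all 25572 genes kept. Each genotype comparison used its 2 groups, and the interaction used all 4. The study's own edgeR test needs counts and could not be run on TPM. Brd1 was also tested by an exact permutation test in Python 3.11.15 with scipy 1.17.1. Simulated data with known folds were used to test the limma fit. Libraries came from separate mice, but their litters are not given in the sources used here, and p-values measure the spread between these libraries. Alternatives were other pseudocounts, filters, scalings and limma settings, cell type scores as covariates, a replicate block, all 36 libraries in one fit, and leaving out each library. A count without the genes in 2 sets was chosen after seeing the data. Symbols and coordinates were matched by gene identifier to GENCODE M21 (GRCm38), with 52489 identifiers matched.

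The genes named were Brd1, the other members of its complex list, the study genes and the 3 genes with the smallest p of all. Also named were the 10 genes with the smallest p on each side among those with a mean of at least 1 TPM. Added to these were the 3 largest log2 fold changes on each side at the nominal level, and list members at that level. Others are said to be chosen after their values were seen. The comparison, the members and the lists were chosen with earlier results of these data known. Of the list genes, 1 (Ctgf) was not found in the table by symbol.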

Additional observations from a re-analysis of the deposited data

Results flagged for a closer look

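Values of single libraries were compared with the rest of their group, for the named genes, the cell type scores (mean log2(TPM + 0.5) of a list), the mitochondrial share and the correlation between libraries. In 10 of 122 groups the highest or lowest library stood apart by Dixon's criterion, where chance gives about 1 in 20. Brd1+/- IMN replicate 6 was the lowest of its group in 3 measures: its median correlation with the other libraries (0.948), its microglia score (4.05) and its striatal score (2.15). Brd1+/- IMN replicate 5 had the highest erythrocyte score (7.11) and was listed at 0.0 TPM for Mir6907. WT IMN replicate 7 had the highest score of oligodendrocyte precursors (4.11). Among the named genes, Ercc2 was at 30.6 TPM in Brd1+/- IMN replicate 2 (highest), Gm6916 at 1.23 TPM in WT IMN replicate 2 (lowest), Rps10-ps4 at 0.198 TPM in the same library (highest) and Slc25a32 at 2.75 TPM in WT IMN replicate 10 (highest). No named gene's interaction passed an adjusted p under 0.05 by limma (0 of 25572 genes; 818 at an unadjusted p under 0.05).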

How the results depend on the processing

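Under IMN the count at an adjusted p under 0.05 was 0 in the 13 alternative fits and in the 19 fits that left out 1 library. The count at the nominal level (157) was 79 with a mean of at least 1 TPM, where fewer genes were tested, and ran from 128 to 196 when 1 library was left out. Taking the 12 genes in 2 sets out of the 157, a choice made after seeing the data, left 145. Brd1 lay between -0.49 and -0.43 over the 13 alternatives and between -0.49 and -0.42 over the libraries left out, and its adjusted p never fell below 0.386. With the replicate number as a block Brd1 was at -0.43, with an unadjusted limma p of 0.000934 and rank 11, and 157 genes were at the nominal level. Without the block its unadjusted limma p was 6.87e-05, at rank 1. Deviations of same-numbered libraries correlated from -0.16 to 0.319 over 9 pairs, 2 of them over 0.1. Only 1 Brd1+/- library correlated best with its own number. Since litters are not given, these correlations cannot decide whether the numbers pair the mice. With vehicle (179 genes at the nominal level, 0 at an adjusted p under 0.05) the adjusted count was 1 with a mean of at least 1 TPM, with median-ratio scaling, with quantile normalization, with the total without mitochondrial genes, with score covariates and with all 36 libraries in one fit, and from 0 to 2 when 1 library was left out (2 without Brd1+/- vehicle replicate 6, 1 without replicate 3 or 9 of that group). The nominal count there was 98 with a mean of at least 1 TPM, 326 with array weights, and from 143 to 383 when 1 library was left out, the highest without WT vehicle replicate 1. For the interaction (140) it was 70 with a mean of at least 1 TPM and 242 with array weights, and from 106 to 173 without single libraries. Of 29 named genes besides Brd1 at the nominal level, 29 kept their sign in every alternative that tested them and 22 stayed at that level in all of those. Ovca2, Selenok-ps8, Pcdhb5, 4930447C04Rik, Gm973, Agbl5 and Rps10-ps4 lost it in at least 1. Kcnd2 turned to -0.005 with array weights and ran from -0.02 to 0.066 when 1 library was left out, Ing5 from -0.018 to 0.042 and Meaf6 from -0.037 to 0.056. The medians of the 35 lists moved by less than the spread between mice in each alternative tried. Except for the number of genes tested, the cause of these shifts was not tested. The depth behind each TPM value is unknown, so low genes carry an error that cannot be separated from the spread between mice.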
